A study of Mus musculus with 12 samples.

Results

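The 10 genes described here write, maintain and erase DNA methylation. They were chosen by name for what their proteins do, with no measured value in the rule, and all 10 were found among the 45706 genes of the count table. They comprise the methyltransferases *Dnmt1*, *Dnmt3a*, *Dnmt3b* and *Dnmt3l*, the dioxygenases *Tet1*, *Tet2* and *Tet3*, the maintenance cofactors *Uhrf1* and *Uhrf2*, and the glycosylase *Tdg*. All 10 had enough counts to be tested, although *Dnmt3l* passed only through the groups in which it was high.

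RNA was sequenced from mouse cells of the C57BL/6 strain in 4 groups with 3 independent samples each, made on different days. All came from embryonic stem cells, and the study's methods describe a heterozygous reporter with GFP in the *Sox1* gene. NPC, labelled Baseline, are glial progenitors that the label gives as unsorted, grown as neural progenitor cells. The study describes such cells as not expressing *Sox1*, although its transcript was present at a low level in these libraries. NPC(+), labelled Sox1posGP, are sorted progenitors in which *Sox1* was on. According to the methods *Sox1* was induced with dCas9-VP64, a transcriptional activator that cannot cut DNA, guided to the *Sox1* promoter in lines grown from single cells. The libraries labelled NSC hold unsorted neuroepithelial cells, and those labelled NR hold neuroepithelial cells sorted for GFP and called neural rosettes. By these labels sorting goes together with induction in the comparison of NPC(+) with NPC, whereas the study's text speaks of sorting cells both with and without induction. Whether NPC were sorted is therefore uncertain. It is not stated which lines gave these libraries or whether NPC carried guide RNAs.

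Methyl groups on cytosines of CpG sites are placed on unmethylated DNA by Dnmt3a and Dnmt3b, and Dnmt3l, which has no catalytic activity of its own, stimulates both. After replication Uhrf1 binds the hemimethylated CpG sites and recruits Dnmt1, which copies the mark to the new strand. Tet enzymes oxidise methylcytosine, and Tdg removes the oxidised bases so that base excision repair can put back an unmodified cytosine. Dnmt3b, Dnmt3l and Tet1 are known for high expression in pluripotent cells, whereas Tet3 and Dnmt3a are prominent in neural tissue.

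Reference promoter sequences are shown for 4 members that the results turn on. They were taken from RefSeq on GRCm38.p6 and run from 250 bases before to 50 bases after a listed transcription start, and all 10 genes had at least 1 of the 17 windows. *Dnmt1* and *Uhrf1*, the members that rose in NPC(+), are printed with capitals at an E2F-type motif. E2F factors bind such motifs in genes of the replication phase. The motif was searched as TTTCCCGC, TTTGGCGC, TTTCGCGC and TTTGCCGC on both strands.
Dnmt1 (chr9:20952574-20952873, minus strand): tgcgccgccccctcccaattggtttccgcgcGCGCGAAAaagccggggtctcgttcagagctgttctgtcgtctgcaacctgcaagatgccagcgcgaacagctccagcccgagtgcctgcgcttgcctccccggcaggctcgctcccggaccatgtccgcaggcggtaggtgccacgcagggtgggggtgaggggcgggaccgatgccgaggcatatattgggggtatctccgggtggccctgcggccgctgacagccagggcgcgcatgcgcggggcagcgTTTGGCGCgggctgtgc
Uhrf1 (chr17:56304063-56304362, plus strand): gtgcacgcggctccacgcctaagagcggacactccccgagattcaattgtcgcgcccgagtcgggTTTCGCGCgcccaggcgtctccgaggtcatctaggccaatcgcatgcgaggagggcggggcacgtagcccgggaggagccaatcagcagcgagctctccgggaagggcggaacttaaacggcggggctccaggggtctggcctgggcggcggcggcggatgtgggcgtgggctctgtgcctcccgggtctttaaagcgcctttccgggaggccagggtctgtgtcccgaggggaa
The *Dnmt1* window held 2 matches, beginning at positions -219 and 33 relative to the start, and the *Uhrf1* window held 1 match at position -185. The windows printed for *Dnmt1* and *Uhrf1* were chosen because they held a match. No other window of the members had one, including those at the other listed starts of both genes. Among all 32851 windows of this length 2.26% had a match, and 2.6% of all genes had a match in any of their windows. From a list of 20 S-phase genes 16 had a window, and 7 of these 16 genes had a match. A match is a run of letters only, and binding was not measured.

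*Dnmt3b* and *Dnmt3l*, whose levels differed most between the groups, are printed with every CpG in capitals.
Dnmt3b (chr2:153649199-153649498, plus strand): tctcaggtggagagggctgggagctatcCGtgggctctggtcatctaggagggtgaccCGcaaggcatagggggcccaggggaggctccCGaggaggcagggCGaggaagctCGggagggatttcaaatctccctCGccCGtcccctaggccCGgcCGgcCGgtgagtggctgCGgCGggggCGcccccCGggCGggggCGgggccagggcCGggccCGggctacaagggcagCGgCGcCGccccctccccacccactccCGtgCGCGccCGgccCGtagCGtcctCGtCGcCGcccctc
Dnmt3l (chr10:78042037-78042336, plus strand): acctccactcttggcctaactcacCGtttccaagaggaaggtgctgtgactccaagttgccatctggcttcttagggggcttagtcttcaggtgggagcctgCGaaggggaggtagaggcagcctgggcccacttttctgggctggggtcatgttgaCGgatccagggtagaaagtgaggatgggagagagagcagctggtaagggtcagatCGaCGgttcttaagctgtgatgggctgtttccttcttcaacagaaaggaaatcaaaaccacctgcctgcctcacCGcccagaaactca
The *Dnmt3b* window held 30 CpG sites and the first *Dnmt3l* window 6, against a median of 7 and an upper quartile of 20 over all windows. Methylation was not measured in these libraries.

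Library totals ran from 3407066 to 6315574 counts in NPC(+), from 4939268 to 18351483 in NPC, from 29046205 to 43095688 in those labelled NSC and from 16707006 to 34594885 in those labelled NR. *Sox1* itself lay between 4.83 and 6.00 CPM (TMM-scaled counts per 1000000 counts of a library) in NPC, between 20.3 and 21.7 in NPC(+), between 48.6 and 65.0 in NSC, and it was 14.6 ± 8.66 CPM (SD, n = 3) in NR with a lowest value of 4.62. The library labelled NR 1 was thus at the level of NPC, although its label gives a sort for GFP. The sum of 10 pluripotency markers was 1794 to 3420 CPM in the libraries labelled NR, 62.4 to 187 in those labelled NSC, 7.30 to 8.65 in NPC and 9.42 to 10.8 in NPC(+). Because of these levels the groups are called here by their labels. In bulk libraries such as these, fewer cells of a type and less RNA per cell cannot be told apart.

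In NPC(+) 2 of the 10 members were higher than in NPC and 4 were lower, at an adjusted p under 0.1 and an unadjusted p under 0.05. Over all 17003 genes tested 21.6% were higher and 22.7% were lower under the same rule. None of the members changed over 4-fold, against 3.87% of all genes called higher and 1.92% called lower by that fold. The 3 libraries of NPC(+) did not overlap those of NPC for 6 members, and this held for 52.7% of all genes. The median difference of the 9 members above the counting floor of 3 counts was 0.00 on the log2 scale, and that of all genes was also 0.00. The share of members that changed was therefore near the background, and the named genes carry the description.

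**Figure D1:**
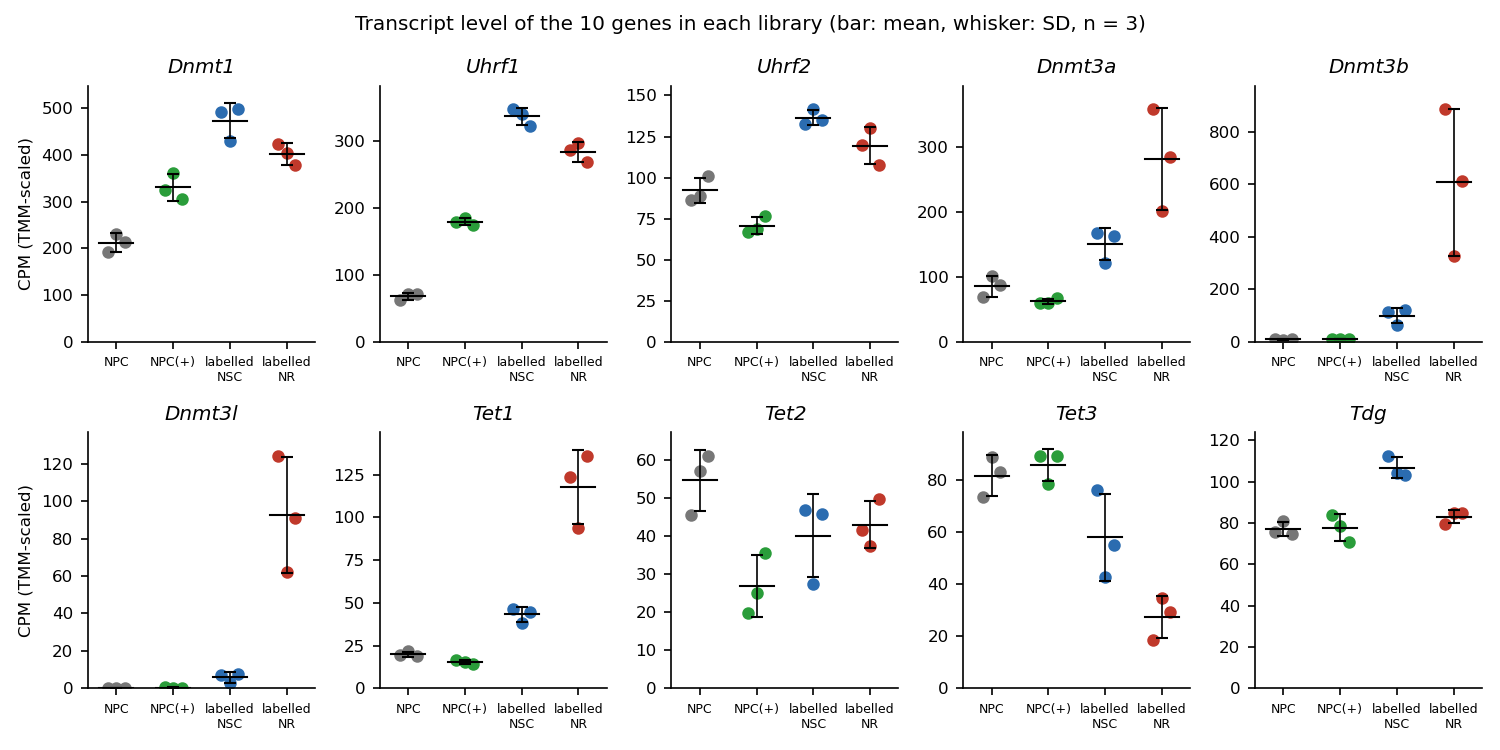
Level of each member in every library, in CPM on a linear axis that starts at 0, for NPC, NPC(+) and the libraries labelled NSC and NR. Points are libraries, bars are means and whiskers are the SD of 3 libraries. *Dnmt1* and *Uhrf1* step up from NPC to NPC(+), whereas *Dnmt3b*, *Dnmt3l* and *Tet1* stand highest in the libraries labelled NR.

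The maintenance pair *Dnmt1* and *Uhrf1* rose in NPC(+) and was higher still in the libraries labelled NSC and NR. *Uhrf1* (chr17:56303321-56323486), which encodes the protein that reads hemimethylated CpG sites, had 62.4, 70.9 and 70.8 CPM in NPC and 178, 185 and 174 CPM in NPC(+). All libraries of NPC(+) lay above all of NPC. The rise was 2.65-fold, with a log2 fold change of 1.40 ± 0.08 (SE) and an adjusted p of 2.16e-08 in edgeR's quasi-likelihood test. The libraries labelled NSC had 347, 339.6 and 322 CPM and those labelled NR 286, 296 and 268 CPM of *Uhrf1*. NPC(+) lay below both, by log2 differences of -0.91 ± 0.08 against NSC (adjusted p = 1.59e-07) and -0.66 ± 0.08 against NR (adjusted p = 3.33e-06). Against NPC, NSC and NR were 4.96-fold and 4.18-fold higher.

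*Dnmt1* (chr9:20907209-20959888), the maintenance methyltransferase, had 192, 232 and 213 CPM in NPC and 325, 362 and 305 CPM in NPC(+). The groups did not overlap, and the rise was 1.56-fold (log2 fold change 0.64 ± 0.10, adjusted p = 0.00014). NSC had 492, 429.9 and 498 CPM, and NR had 424, 404 and 378 CPM. The order was NSC, NR, NPC(+) and NPC, and each neighbour in it differed from the next beyond the replicate spread. The closest pair was NR and NSC, with a log2 difference of -0.24 ± 0.09 and an adjusted p of 0.0519, a call that 6 of 22 other settings lost. Omitting NSC 1, NSC 3 or NR 3 was among them (adjusted p = 0.111, 0.119 and 0.161). The call between NR and NPC(+), with a log2 difference of -0.28 for NPC(+), was lost without NPC(+) 1 or NPC(+) 3 (adjusted p = 0.104 and 0.0732, the latter with an unadjusted p over 0.05).

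*Uhrf2* (chr19:30030513-30093722), a relative of *Uhrf1* that does not replace it in maintenance, went the other way in NPC(+). It had 86.6, 89.0 and 101 CPM in NPC and 66.9, 68.6 and 76.9 CPM in NPC(+). Every NPC(+) library lay below every NPC library, and the log2 fold change was -0.37 ± 0.10 (adjusted p = 0.00682). *Uhrf2* was higher in NSC and NR than in NPC, with means of 136 ± 4.61 and 119 ± 11.3 CPM (SD, n = 3).

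Among 10 genes that act with the maintenance machinery 5 were higher and 4 were lower in NPC(+), against 21.6% and 22.7% of all genes. These 9 genes were named after their values were seen. The higher ones were *Zfp57*, which protects imprinted methylation (log2 fold change 0.98 ± 0.14), its corepressor *Trim28* (0.38), the ligase *Lig1* (0.63 ± 0.10), the remodeller *Hells* (0.55 ± 0.14) and the replication clamp *Pcna* (0.46). The lower ones were *Cdca7* (-0.41), which recruits Hells, its relative *Cdca7l* (-0.34), the deubiquitinase *Usp7* (-0.51) and *Zfp445* (-0.48), another guardian of imprints. Against NPC, 8 partners were higher and none was called lower by edgeR or DESeq2 in NSC (0 at an unadjusted p under 0.05), and 7 were higher and 1 was lower in NR. Over all genes 42.7% were higher and 32.5% lower in NSC and 44.2% and 32.8% in NR, and the counts of every other list are to be read against the same shares. A listed gene that was near 0 in NPC, such as *Dppa3*, could be tested only through the groups in which it was high, so its call follows in part from how it was kept. The largest rises in NSC were of *Dppa3*, *Lig1* (1.81 ± 0.10) and *Hells* (1.52 ± 0.13), and in NR of *Dppa3*, *Zfp57* (2.66 ± 0.14) and *Hells* (2.55 ± 0.14). *Dppa3* encodes Stella, which keeps Uhrf1 off chromatin. It had 96.6 to 144 CPM in NR and 2.31 to 2.90 CPM in NSC, and no library of NPC or NPC(+) held over 3 counts of it. The medians of the list were 0.38, 0.99 and 1.76 in NPC(+), NSC and NR on the log2 scale, against 0.00, 0.20 and 0.19 over all genes. The first was taken over 9 genes, without *Dppa3*, and the median of all 10 fitted values in NPC(+) was 0.11.

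Replication genes were measured beside the maintenance pair, because *Dnmt1* and *Uhrf1* are themselves known to rise in the S phase. Of 20 S-phase genes 13 were higher in NPC(+) and 2, the helicase subunit *Mcm2* and the reductase subunit *Rrm2*, were lower. Their median log2 difference was 0.46. Their summed level was 2696 to 2983 CPM in NPC and 3175 to 3470 CPM in NPC(+), so the groups did not overlap. The sum was 5312 to 5948 CPM in NSC, where 18 genes were called higher than in NPC, and 5722 to 6487 CPM in NR, where 19 were. By edgeR no S-phase gene was called lower in either group, and all 20 had log2 differences from NPC above 0. The cyclins *Ccne1* and *Ccne2* and the helicase subunit *Mcm4* had the largest rises in both, with log2 differences of 2.74, 2.31 and 1.56 in NSC and 3.36, 1.94 and 1.80 in NR. The part of the S-phase genes in the rise of *Dnmt1* and *Uhrf1* was not tested.

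**Figure D2:**
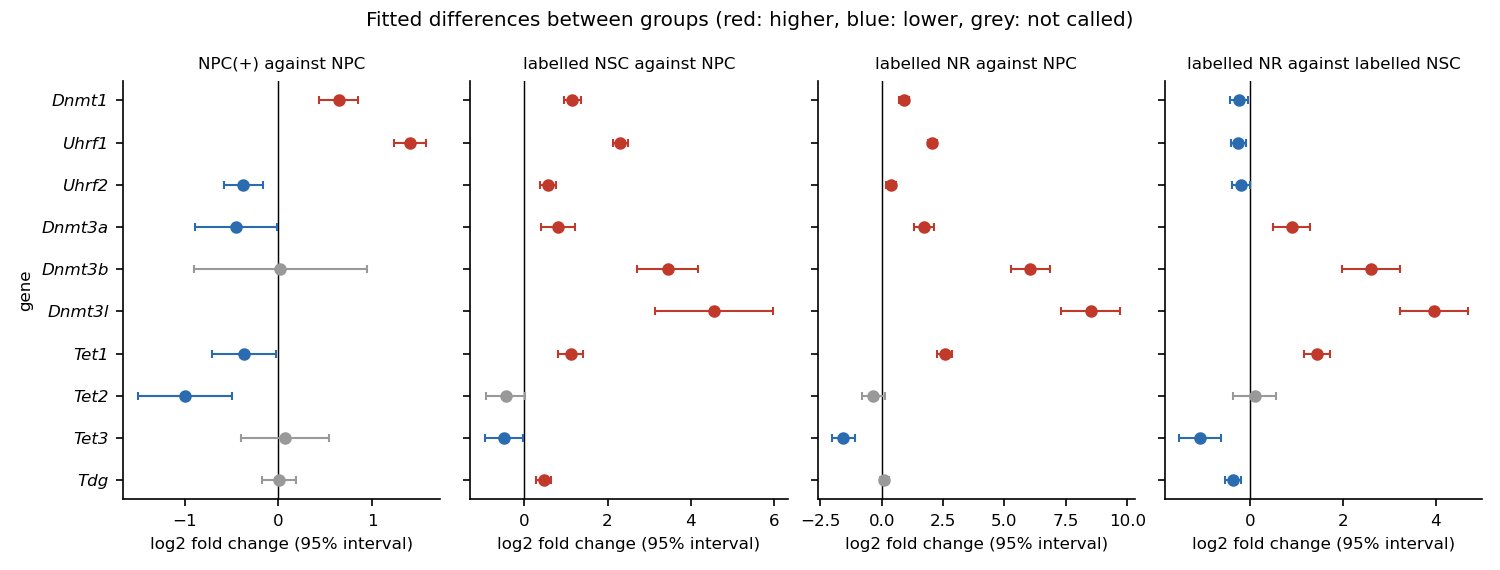
Fitted log2 fold change of each member with its 95% interval in 4 comparisons, with a separate linear axis for each panel. Red marks genes called higher, blue genes called lower and grey genes not called, and *Dnmt3l* is left out of the first panel because it was at the counting floor in both groups. In NPC(+) *Uhrf1* stands farthest to the right at 1.40 and *Tet2* farthest to the left at -0.996.

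None of *Dnmt3a*, *Dnmt3b* and *Dnmt3l* was called higher in NPC(+). Each was higher in the libraries labelled NSC and NR than in both NPC groups, with larger differences for *Dnmt3b* and *Dnmt3l* than for *Dnmt3a*. *Dnmt3b* (chr2:153649450-153687730) had 9.19, 8.79 and 9.60 CPM in NPC and 9.55, 9.26 and 9.17 CPM in NPC(+). The 2 groups overlapped, and the log2 difference was 0.02 with a 95% interval from -0.90 to 0.95. The libraries labelled NSC had 114, 65.5 and 119 CPM, 10.9-fold the level of NPC (log2 fold change 3.44 ± 0.34, adjusted p = 7.04e-07). The libraries labelled NR had 885, 325 and 613 CPM, which was 66.2-fold the level of NPC and 6.10-fold that of NSC (log2 fold changes 6.05 ± 0.37 and 2.61 ± 0.29, adjusted p = 4.33e-09 and 1.44e-05). For *Dnmt3b* the 3 libraries labelled NR thus differed among themselves more than those of any other group.

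*Dnmt3l* (chr10:78041947-78063622) was at the limit of detection in the progenitors. Its counts were 3, 2 and 2 in NPC and 2, 2 and 1 in NPC(+), so no fold between these groups can be given. The libraries labelled NSC had 7.36, 2.62 and 7.68 CPM and those labelled NR had 124, 62.2 and 91.2 CPM. From summed counts the ratio of NSC to NPC was 25.3, with a 95% counting interval from 12.2 to 63.2 (exact Clopper-Pearson). The ratio of NR to NPC was 356, with an interval from 173 to 886. These intervals cover counting error only. NR lay above NSC by a log2 difference of 3.96 ± 0.34 (adjusted p = 1.9e-06), and the groups did not overlap.

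*Dnmt3a* (chr12:3806007-3914443), the de novo enzyme prominent in neural cells, had 68.9, 101 and 87.4 CPM in NPC and 59.9, 60.1 and 67.0 CPM in NPC(+). The lowest NPC library lay above the highest NPC(+) library, and the log2 fold change was -0.45 ± 0.20 with an adjusted p of 0.0983. Of 22 other settings 14 lost this call. Omission of any 1 of NSC 1, NSC 3, NR 3, NPC 2, NPC 3 or any NPC(+) library was enough (adjusted p between 0.11 and 0.281). *Dnmt3a* had 167, 121 and 163 CPM in NSC and 358, 202 and 284 CPM in NR. NSC was 1.76-fold and NR 3.29-fold above NPC (adjusted p = 0.00158 and 2.24e-06), and NR lay 1.87-fold above NSC (adjusted p = 0.00131).

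Pluripotency markers moved with *Dnmt3b* and *Dnmt3l*. All 10 markers were called higher than in NPC both in NSC and in NR, where 42.7% and 44.2% of all genes were. Together they held only 7.30 to 8.65 CPM in NPC. Markers near 0 there could be tested only through the groups in which they were high, so their calls follow in part from how they were kept. None was called in NPC(+) by edgeR or DESeq2, with 0 of 10 at an unadjusted p under 0.05. Low counts limit that result, and the sum in NPC(+), 9.42 to 10.8 CPM, lay above that in NPC. *Zfp42*, a marker of naive embryonic stem cells, had 293 to 511 CPM in NR, 8.53 to 21.7 in NSC and 0.626 to 1.01 in NPC. The largest of their log2 differences from NPC in NR were those of *Tdgf1*, *Dppa4* and *Zfp42*. Divided by the summed markers of the same library, *Dnmt3l* was 3.94, 4.20 and 4.55% of the sum in NSC 1, 2 and 3 and 3.63, 3.47 and 3.46% in NR 1, 2 and 3. *Dnmt3b* was 60.8, 105 and 70.8% of the sum in NSC and 25.9, 18.1 and 23.3% in NR, and *Tet1* 24.9, 61.6 and 26.4% in NSC and 3.61, 5.23 and 5.16% in NR. *Dnmt3l* thus kept a narrow ratio to the markers over libraries whose marker sum ran from 62.4 to 3420 CPM. Its ratio was still higher in every NSC library than in any NR library. The ratios of *Dnmt3b* and *Tet1* were also higher in NSC than in NR, and they lay farther apart. Within NR the *Dnmt3b* ratio was lowest in NR 2, which also had the lowest sum, 1794 CPM. The part of pluripotent cells in the levels of these genes was not tested.

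**Figure D3:**
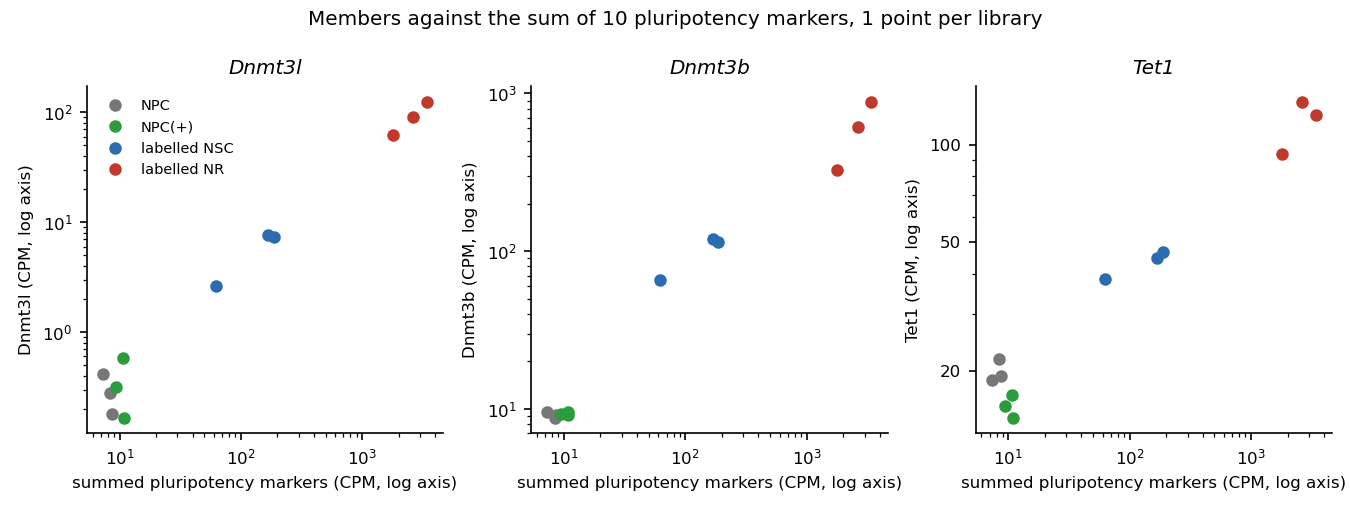
Level of *Dnmt3l*, *Dnmt3b* and *Tet1* in CPM against the summed CPM of 10 pluripotency markers, both on log axes, with 1 point per library coloured by group. The libraries labelled NR lie at sums from 1794 to 3420 CPM and hold the highest level of each gene, and *Dnmt3l* in NPC and NPC(+) rests on at most 3 counts a library.

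Genes that steer de novo methylation to chromatin or keep it away were called higher for 3 of 10 and lower for 1 of 10 in NPC(+). Named after their values were seen, these were the demethylase *Kdm1b* (log2 fold change 1.50 ± 0.12), the methyltransferase *Setdb1* (1.48 ± 0.10), the CpG island protein *Kdm2b* (0.79) and, lower, the methyltransferase *Nsd1* (-0.21). *Kdm1b* removes the histone methylation that blocks Dnmt3a, and it rose from 12.2 ± 0.275 to 34.4 ± 1.72 CPM (SD, n = 3). Of this list 8 were higher than in NPC and none was called lower by edgeR or DESeq2 in NSC (0 at an unadjusted p under 0.05), and 6 were higher and 2 lower in NR. *Kdm1b*, *Kdm2b* and *Ehmt1* had the largest differences in both groups, at 1.72, 1.16 and 1.13 in NSC and 0.92, 1.08 and 0.74 in NR. The median of the list was 0.12 in NPC(+), 0.65 in NSC and 0.39 in NR.

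The 3 Tet genes each followed a different order over the groups. *Tet2* (chr3:133463679-133545139) fell in NPC(+), from 45.7, 57.2 and 61.1 CPM in NPC to 19.7, 25.1 and 35.7 CPM. The groups did not overlap. The log2 fold change was -0.996 ± 0.23 (adjusted p = 0.00398), a level 0.501 times that of NPC, and all 22 other settings kept the call. *Tet2* had 47.0, 27.5 and 45.8 CPM in NSC and 41.7, 37.5 and 49.7 CPM in NR. Neither group was called different from NPC, with 95% intervals of the log2 difference from -0.90 to 0.03 for NSC and from -0.80 to 0.13 for NR. The interval between NR and NSC ran from -0.36 to 0.56. The difference between NSC and NPC was called without any 1 of NSC 1, NSC 3, NR 1, NPC 1 or NPC(+) 1 (adjusted p between 0.0496 and 0.0661). NPC(+) was called lower than NSC by -0.56 ± 0.23 (adjusted p = 0.0434) and lower than NR by -0.66 ± 0.23 (adjusted p = 0.019). The first call was lost without NSC 1, NSC 3, NPC(+) 1 or NPC(+) 2 (adjusted p between 0.118 and 0.211), and the second without NR 3 or NPC(+) 1 (adjusted p = 0.0901, with an unadjusted p over 0.05, and 0.112).

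*Tet1* (chr10:62804570-62908996), known for high expression in pluripotent cells, rose with *Dnmt3b* in NSC and NR. It had 19.3, 21.8 and 18.8 CPM in NPC, 46.6, 38.5 and 44.6 CPM in NSC and 124, 93.8 and 136 CPM in NR. No 2 of these groups overlapped, and the log2 differences from NPC were 1.12 ± 0.14 in NSC (adjusted p = 6.03e-06) and 2.56 ± 0.14 in NR (adjusted p = 1.84e-09). NPC(+) had 16.8, 15.5 and 14.3 CPM, below every NPC library. That difference was -0.37 ± 0.16 with an adjusted p of 0.0848, and 15 of 22 other settings lost it. Omission of any 1 NPC(+) library, of NPC 1 or 2, or of NSC 1 or 3 was enough (adjusted p between 0.105 and 0.234).

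*Tet3* (chr6:83362373-83459084) ran opposite to *Tet1*. It had 73.2, 88.6 and 83.1 CPM in NPC and 89.2, 78.5 and 89.2 CPM in NPC(+), and these overlapped, with a 95% interval of the log2 difference from -0.39 to 0.54. NSC had 76.0, 42.6 and 55.2 CPM and NR had 18.7, 34.6 and 29.2 CPM. NR lay below all other groups, by -1.56 ± 0.22 against NPC (adjusted p = 1.67e-05) and -1.07 ± 0.21 against NSC (adjusted p = 0.00095). The fall in NSC against NPC was -0.49 ± 0.21 (adjusted p = 0.0492), but the groups overlapped through NSC 1, and 9 of 22 other settings lost it. Omission of NSC 2, NSC 3, NPC 2 or NPC 3 was enough (adjusted p between 0.108 and 0.174), as was that of NPC(+) 3 (adjusted p = 0.0688, with an unadjusted p over 0.05).

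Of 10 genes that partner Tet enzymes or supply their cofactor, 2 were higher and 2 lower in NPC(+). Named after their values were seen, *Idh1*, which makes the cosubstrate of Tet enzymes in the cytosol, rose from 144 ± 12.8 to 368 ± 12.3 CPM (log2 fold change 1.35 ± 0.08, adjusted p = 4e-08). *Cxxc5*, a CXXC protein that binds Tet2, rose by 0.44 on the log2 scale. *Ogt*, the glycosyltransferase that Tet proteins bring to chromatin, fell from 681 ± 30.2 to 302 ± 9.19 CPM (-1.17 ± 0.07, adjusted p = 6.36e-08), and *Sall1* was lower by -0.33. NSC and NR each had 8 higher and 2 lower than NPC. *Wt1*, *Sall4* and *Nanog* led in both. *Wt1* had 0.656 to 0.783 CPM in NSC and 2.74 to 4.74 in NR and no count in NPC. *Sall4*, a zinc-finger factor of stem cells, had 117 to 141 CPM in NSC, 221 to 329.7 in NR and 0.977 to 1.46 in NPC, and *Nanog*, which also stands among the pluripotency markers, 4.42 to 10.9, 113 to 180.5 and 0.14 to 1.25. The medians of the list were -0.08 (over 9 genes), 1.47 and 1.36 in NPC(+), NSC and NR.

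*Tdg* (chr10:82629828-82650799) had 75.7, 81.2 and 74.9 CPM in NPC and 84.0, 78.4 and 70.9 CPM in NPC(+). The groups overlapped, and the log2 difference was 0.00 with a 95% interval from -0.18 to 0.19. The libraries labelled NSC had 113, 104 and 104 CPM, above all others, and a log2 difference of 0.47 ± 0.08 from NPC (adjusted p = 0.000134). NR, at 79.4, 85.0 and 84.9 CPM, was not called different from NPC (interval -0.07 to 0.28), though 4 of 22 other settings called it higher, and lay below NSC (-0.36 ± 0.08, adjusted p = 0.00185).

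Among 14 genes of base excision repair and deamination 13 were tested, and 5 were higher and 5 lower in NPC(+). Named after their values were seen, *Gadd45b* (1.53), the uracil glycosylase *Ung* (1.46 ± 0.14), the endonuclease *Apex1* (1.27), *Parp1* (0.56) and the glycosylase *Smug1* (0.37) were higher. *Gadd45g* (-1.06), *Gadd45a* (-0.97), the glycosylases *Neil3* (-0.81) and *Neil1* (-0.65 ± 0.13) and the polymerase *Polb* (-0.44) were lower. The 3 *Gadd45* genes, stress-response genes linked to demethylation, thus did not move together. NSC had 7 higher and 5 lower than NPC, led by *Neil2*, *Neil1* (-2.32 ± 0.13) and *Neil3* (1.84 ± 0.16). NR had 8 higher and 3 lower, led by *Neil2*, *Ung* (2.99 ± 0.13) and *Neil1* (-2.13 ± 0.13). *Neil2* stayed at or under 2 counts in NPC libraries and at or under 1.43 CPM in NR. The medians of this list were 0.01 (over 12 genes), 0.41 and 0.50 in NPC(+), NSC and NR.

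Methyl-CpG readers, which bind the finished mark, included 1 higher and 2 lower of 8 in NPC(+), no more than the 21.6% and near the 22.7% of all genes. Named after their values were seen, *Mbd2* fell from 93.0 ± 5.21 to 29.6 ± 1.40 CPM (log2 fold change -1.65 ± 0.18, adjusted p = 1.08e-05), *Zbtb38* was lower by -0.65 and *Mbd3*, a family member that does not itself bind methylated CpG, was higher by 0.29. In NSC 1 was higher and 5 lower than in NPC (42.7% and 32.5% of all genes), and in NR 1 was higher and 4 lower (44.2% and 32.8%). *Mbd1* (-2.29 ± 0.14) and *Zbtb4* (-1.67 ± 0.35) led in NSC with *Mbd4* (1.19 ± 0.20), and *Mbd1* (-2.10 ± 0.14), *Zbtb4* (-1.74 ± 0.35) and *Mbd2* (-1.25 ± 0.17) led in NR. The median was -0.21 in NPC(+), -0.44 in NSC and -0.56 in NR. Of 10 genes of the cycle that makes the methyl donor S-adenosylmethionine 9 were tested. In NPC(+) 1 was higher and 2 were lower, among them *Mtr* (0.44) and *Ahcyl2* (-0.79), likewise named after their values were seen. In NSC 5 were higher and 2 lower, and in NR 4 were higher and 1 lower. *Nnmt* and *Ahcyl2* were among the largest differences in both, with -1.61 and -1.58 for *Ahcyl2* and at most 5.73 CPM for *Nnmt*. The medians were -0.04, 0.24 and 0.65 in NPC(+), NSC and NR.

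**Figure D4:**
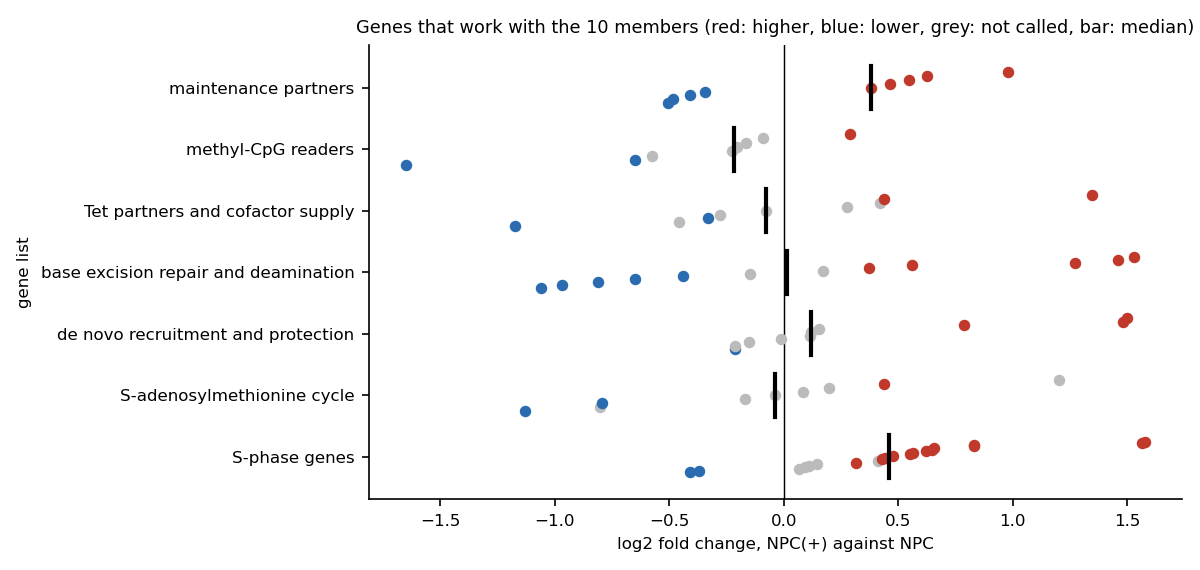
Log2 fold change of NPC(+) against NPC for each gene of 7 lists, 1 point per gene on a linear axis, with genes at or under 3 counts in every library of both groups left out. Red points are called higher, blue points lower and grey points not called, and the black bar is the median. The S-phase genes have the highest median, 0.46, and every list holds genes on both sides of 0.

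The make-up of each family was compared as the share of its counts per kilobase of exon in a library, so that long and short transcripts weigh alike. *Dnmt1* made up 80.6% ± 0.754 (SD, n = 3) of the *Dnmt1*, *Dnmt3a* and *Dnmt3b* transcripts in NPC and 88.9% ± 1.20 in NPC(+), but 69.6% ± 4.12 in NSC and 30.6% ± 10.03 in NR. *Dnmt3b* made up 5.08% ± 0.630, 3.64% ± 0.267, 20.7% ± 3.77 and 60.4% ± 10.4 in the same order. *Dnmt3b* was thus the most abundant methyltransferase transcript in the libraries labelled NR, where its share ran from 48.8 to 68.7%. *Dnmt3a* fell from 14.4% ± 1.30 in NPC to 7.48% ± 0.973 in NPC(+). Among the Tet transcripts *Tet3* made up 51.9% ± 1.08 in NPC and 66.5% ± 3.45 in NPC(+), but 39.8% ± 3.68 in NSC and 14.2% ± 5.28 in NR. *Tet1* made up 13.8% ± 1.30, 13.1% ± 1.78, 32.9% ± 4.12 and 64.3% ± 5.28. *Tet2* fell from 34.3% ± 2.33 in NPC to 20.4% ± 4.93 in NPC(+), while the *Tet1* share of these groups overlapped. For *Dnmt1*, *Dnmt3b* and *Tet3* no 2 groups overlapped. Exact two-sided permutation tests of 3 against 3 libraries cannot go below p = 0.1, and they gave 0.1 for these pairs and 0.7 for *Tet1* between NPC(+) and NPC. A share also moves when another gene of its family moves. Between NPC(+) and NPC the levels of *Tet3* and *Dnmt3b* were not called different, although their shares did not overlap. The exon length was the union over all transcripts, and counts per gene cannot tell isoforms apart.

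**Figure D5:**
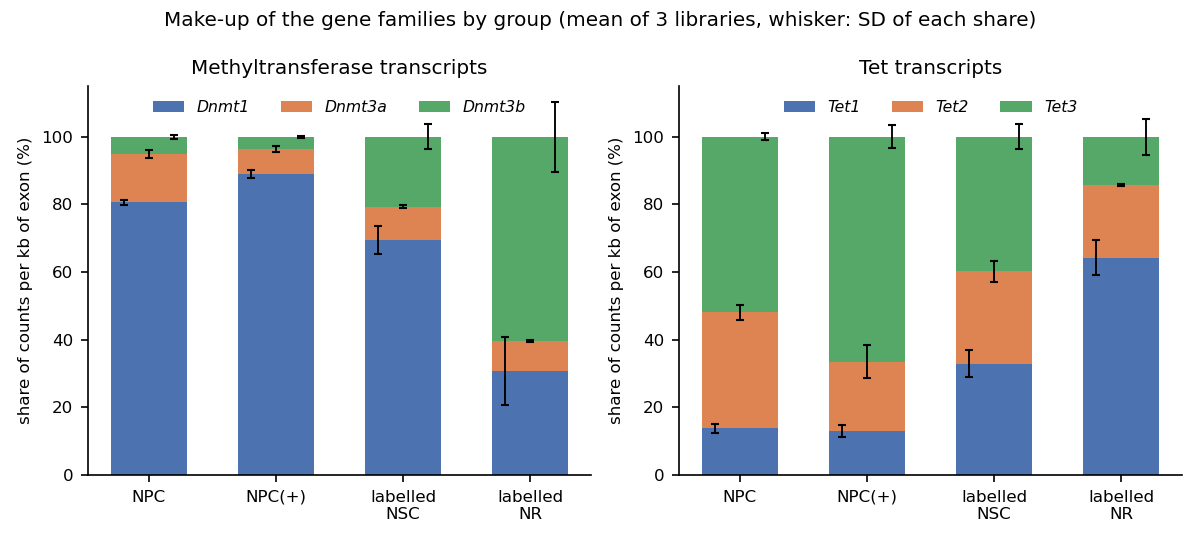
Share of counts per kilobase of exon, in percent on a linear axis from 0, of *Dnmt1*, *Dnmt3a* and *Dnmt3b* (left) and of *Tet1*, *Tet2* and *Tet3* (right) in the 4 groups. Bars are stacked means of 3 libraries and whiskers are the SD of each share. *Dnmt3b* takes 60.4% and *Tet1* 64.3% in the libraries labelled NR, against 5.08% and 13.8% in NPC.

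Per kilobase of exon, *Dnmt1* had the highest mean level of the members in NPC, at 28.8 CPM per kilobase, followed by *Uhrf1* at 16.0, *Tdg* at 14.4 and *Uhrf2* at 10.7. *Dnmt3a* and *Tet3* followed at 5.16 and 4.89, *Tet2* at 3.24, *Dnmt3b* at 1.80, *Tet1* at 1.29 and *Dnmt3l* at 0.0977 CPM per kilobase. In NPC(+) *Dnmt1* and *Uhrf1* stood at 44.8 and 42.1. In NR *Dnmt3b* was highest at 119, above *Uhrf1* at 66.5, *Dnmt1* at 54.5 and *Dnmt3l* at 31.0. These orders between genes are levels without a test, and they depend on the length used. *Uhrf2* has 8590 bases in the union of its exons and 3536 in its longest coding transcript, *Tdg* 5374 and 3502, and *Uhrf1* 4259 and 3586. By the longest coding transcript *Uhrf1* would stand behind *Uhrf2* and *Tdg* in NPC.

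The NPC libraries serve as the control of 3 comparisons, so the following counts are not independent. *Dnmt3l* is left out of them, because it was tested only through the groups in which it was high. Of the other 9 members 7 were higher in NSC than in NPC and 1, *Tet3*, was lower, where 42.7% of all genes were higher and 32.5% lower. Over 4-fold, 2 of them were higher (*Dnmt3b* and *Uhrf1*), against 19.1% of genes. In NR 6 were higher and 1, again *Tet3*, was lower (44.2% and 32.8% of genes), and 3 were higher over 4-fold (*Dnmt3b*, *Uhrf1* and *Tet1*), against 22.0%. The median log2 difference of these members was 0.82 in NSC and 0.92 in NR, while that of all genes was 0.20 and 0.19. In NR against NSC 3 were higher and 5 lower (29.5% and 25.8% of genes), with *Dnmt3b* over 4-fold higher (7.34% of genes) and a median of -0.19 against 0.01. *Uhrf2* was among the lower ones with an adjusted p of 0.0845, which 11 of 22 other settings lost. The omissions that ended it were NSC 2, NSC 3, NR 1, NR 3 and NPC(+) 2 (adjusted p = 0.135, 0.103, 0.127, 0.3 and 0.101). NPC(+) stood below NSC for 8 of the 9 and above it for 1, *Tet3* (39.9% and 30.0% of genes). The call of *Tet3* was lost without NSC 2 or NPC(+) 3 (adjusted p = 0.101 and 0.0941, the latter with an unadjusted p over 0.05). NPC(+) stood below NR for 7 and above it for 1, likewise *Tet3* (42.9% and 30.8%).

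Over the 12 libraries, the genes whose log2 CPM followed a member most closely were ranked by Pearson's r. The libraries form 4 clusters by group and differ in depth with them, so r describes the pattern of the groups and no p is given. *Uhrf1* was followed most closely by *Col4a1*, *Acly* and *Pip5k1c* (r = 0.999, 0.997 and 0.994), and *Dnmt1* by *Paxip1*, *Pip5k1c* and *Acly* (0.982, 0.982 and 0.98). The maintenance pair thus shared *Acly* and *Pip5k1c*. *Dnmt3l* was followed by *Zfp42*, *Dnmt3b* and *Rif1* (0.995, 0.989 and 0.988), *Dnmt3b* by *Jarid2*, *Slc2a3* and *Phc1* (0.995, 0.994 and 0.993) and *Tet1* by *Rhox5*, *Rbpms2* and *Mkrn1* (0.993, 0.992 and 0.988). *Dnmt3a* was nearest to *Hps1*, *Enox1* and *Sdr39u1* (0.982, 0.979 and 0.977), and *Tet3* to *Mast4*, *Pdik1l* and *Rc3h2* (0.981, 0.978 and 0.975). *Uhrf2* was nearest to *Sgsm2*, *Ubox5* and *Ewsr1* (0.981, 0.981 and 0.98) and *Tdg* to *Btbd7*, *Rnf214* and *Abcd2* (0.979, 0.971 and 0.964). *Tet2* had the weakest partners, *Mical3*, *Nav2* and *Zfp462* (0.924, 0.908 and 0.907). Between members r was 0.979 for *Dnmt1* and *Uhrf1* and -0.913 for *Tet1* and *Tet3*.

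Markers of other cell types were read in the same libraries, and their part in the members' levels was not tested. The sum of 10 neuroepithelial markers was 797 to 990.4 CPM in NPC and 679 to 702 in NPC(+), against 1033 to 1425 in NSC and 308 to 610.0 in NR. Glial markers summed to 3905 to 4269 CPM in NPC and 1841 to 1928 in NPC(+), against 401 to 703 in NSC and 171 to 303 in NR. Neuronal markers summed to 514 to 545 CPM in NPC and 456 to 473 in NPC(+), against 626 to 786 in NSC and 350.0 to 528 in NR. A sum follows its most abundant genes. By gene, 6 of the 10 neuronal markers were higher than in NPC in each of NSC and NR, all over 4-fold. Over all genes 19.1% and 22.0% were higher by that fold. In NSC 2 neuronal markers were lower and in NR 3, and the median log2 differences were 3.83 and 3.00. Glial markers were higher for 3 and lower for 5 in NSC, and higher for 3 and lower for 6 in NR. Their medians were -0.25 and -1.68. Neuroepithelial markers were higher for 7 and lower for 2 in NSC, and higher for 4 and lower for 5 in NR, with medians of 1.08 and -0.49. In NPC(+) the neuroepithelial median was 0.17, although the sum was lower than in NPC. Mesoderm and endoderm markers summed to 21.7 to 30.1 CPM in NPC and 33.3 to 40.4 in NPC(+), against 41.1 to 58.5 in NSC and 93.2 to 145 in NR. *Mesp1* and *Afp* had no count in NPC or NPC(+), and *Sox17* had none in NPC(+). In NPC(+) 3 neuroepithelial markers were higher and 4 lower than in NPC, 2 glial markers were higher and 3 lower, 2 neuronal markers were higher and 1 lower, and 1 of the 7 mesoderm and endoderm markers tested was higher. *Aqp4* and *Dcx*, an astrocyte and a young-neuron marker, were those called over 4-fold higher, and *Aqp4* had 0 or 1 count in each NPC library.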

How the data were processed

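Counts per gene of 12 libraries, 4 groups of 3, were analysed. RNA was isolated with a PicoPure kit and amplified with SMART-Seq, and the authors deposited raw read counts per gene without normalization. The submitters' processing notes name STAR 2.6, RSEM 1.1.14 and the build mm10 without their roles. Strand setting, annotation and read filters are not given in the sources used here. *Dnmt3a*, *Dnmt3l*, *Tet2* and *Tdg* share exonic bases with a gene on the other strand, so reads there may be assigned either way. Gene symbols, coordinates and exon lengths came from GENCODE for GRCm38, and promoter sequences from RefSeq. Groups came from the titles of the samples. The samples were made on different days, by the study's reporting summary with different clonal lines, and which line gave which library is not stated.

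Counts were scaled by TMM and filtered with filterByExpr, which left 17003 genes. They were tested in edgeR 4.0.16 (limma 3.58.1, R 4.3.3) with glmQLFit and glmQLFTest over all 12 libraries without a block. P values were adjusted after Benjamini and Hochberg over all genes tested. A gene was called at an adjusted p under 0.1 and a p under 0.05, the second rule adding a fold above 4. Standard errors were derived from the F statistic of each contrast. Medians of members and lists left out genes at or under 3 counts in every library of both groups. A gene at or under 3 counts throughout 1 group entered as its ratio to 3 counts in each library there. Medians over all genes used every fitted value. Depth limited precision in NPC and NPC(+), where 3 counts are worth up to 0.626 and 0.869 CPM. Counts simulated with a known set of changed genes were used to check the fit. Shares were compared with exact permutation tests in scipy 1.17.1, with Python 3.11.15, pandas 2.3.3 and matplotlib 3.10.9 for tables and figures.

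All 10 members were described. From the other lists the text names the 3 largest called differences of NSC and of NR from NPC and any gene over 4-fold in NPC(+), and for each member the 3 genes of highest r among genes above a mean of 3 log2 CPM. The rule also covers the marker lists, which are given mainly by sums and counts, so not every marker it selects is named. One gene that this rule names is not reported here. The members and lists were chosen with earlier results of these data known. The alternatives were DESeq2 1.42.0, DESeq2 size factors, upper-quartile scaling, library totals, other low-count filters, the replicate number as a block, fits of the groups compared alone, thinning to 3407066 counts, an adjusted p under 0.05 and the omission of each library. For the shares, counts not divided by length were tried as well, and lengths of the longest coding transcript were added after seeing the data.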

Additional observations from a re-analysis of the deposited data

How the results depend on the processing

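Values for single members were computed under 22 other settings (21 for *Dnmt3l*). Of these values 1206 kept their direction and their side of the threshold. A further 66 fell short of a call they had, 13 gained a call and 8 turned in sign, none of these last being called. The difference of *Dnmt3l* between NPC(+) and NPC, at the counting floor in both groups, is not in this tally. It was not called under any setting, and its sign also turned. *Dnmt1* and *Uhrf1* in NPC(+), *Tet2* in NPC(+), *Dnmt3b* and *Tet1* in NSC and NR and *Tet3* in NR were called under all 22. The 4 members lower in NPC(+) became 2 (*Uhrf2* and *Tet2*) with DESeq2, with its size factors, with upper-quartile scaling, with library totals, with at least 10 counts in every library and at an adjusted p under 0.05. The 1 member lower in NSC against NPC became 0 with DESeq2 size factors, upper-quartile scaling, library totals and at least 10 counts in every library, and 2 without a filter on low counts. The 1 member lower in NR against NPC became 2 without that filter and with only the groups compared in the fit. The 5 members lower in NR against NSC became 3 with upper-quartile scaling, at least 10 counts and an adjusted p under 0.05. Omitting 1 library gave 2 to 4 members lower in NPC(+) against NPC, 0 to 2 lower in NSC against NPC, 3 to 5 lower in NR against NSC and 0 to 1 higher in NPC(+) against NSC. The count of 2 in NPC(+) came without NSC 1, NSC 3, NPC 2 or any NPC(+) library, and that of 0 above NSC without NSC 2 or NPC(+) 3. The cause of these changes was not tested. At least 10 counts in every library left fewer genes to test, with 4144 higher in NSC and 4206 in NR against NPC, 3234 higher in NR against NSC, and 3911 and 4033 lower in NPC(+) against NSC and NR. Library totals moved the median over all genes in NSC against NPC from 0.20 to 0.32.

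Uncalled values turned in sign for *Dnmt3b* in NPC(+) against NPC (-0.0274 to 0.0531 over the omissions of 1 library), for *Tdg* there (-0.0286 to 0.0654) and against NR after thinning (0.00877), and for *Tet2* in NR against NSC (-0.12 to 0.21). Without division by length *Dnmt3b* made up 3.02% of its family in NPC and 2.32% in NPC(+), and 13.5% in NSC and 45.4% in NR. With the length of the longest coding transcript its share in NPC(+) was 3.34%, and that of *Tet1* was 9.41% in NPC and 9.21% in NPC(+), and 24.2% in NSC and 53.1% in NR. The order of the groups was kept for both genes.

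The replicate numbers were not taken to pair the libraries, since r of the deviations of same-numbered libraries from their group means was not over 0.1 for every pair. It was 0.0627 to 0.0949 in NPC(+) against NPC, -0.221 to -0.00707 in NSC against NPC and 0.06 to 0.119 in NR against NPC. In NR against NSC it was 0.0446, 0.359 and 0.375. Every library correlated best with its own number in NPC(+) against NPC, NR against NPC and NPC(+) against NR, a hint from the data and not from the design, but not in the comparisons with NSC. The replicate number as a block moved the calls in NPC(+) against NPC from 3676 higher and 3856 lower to 3702 and 3816, and the members lower in NSC against NPC from 1 to 2, *Tet2* being added (adjusted p = 0.0256). Depth limits *Dnmt3l* in NPC and NPC(+), where 3 counts are worth 0.179 to 0.869 CPM.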
